A study of Homo sapiens with 4 samples.

Results

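ATF4 and 9 genes that it is known to switch on under stress were followed in K562 and THP-1 leukemia cells with and without periplocin, a cardiac glycoside from Periploca plants. The 10 genes, ATF4, ATF5, DDIT3, TRIB3, ASNS, CHAC1, SESN2, DDIT4, ADM2 and INHBE, were found by symbol among the 20348 genes of the deposited count table. They had been selected on their counts scaled to a common library size (CPM) in the same 4 libraries, so their levels and changes are given here as a description and were not tested.

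The libraries were K562 DMSO, K562 periplocin, THP-1 DMSO and THP-1 periplocin, each from 1 biological sample. K562 is a human line from a chronic myeloid leukemia and THP-1 a human line from an acute monocytic leukemia. Cells were kept for 72 h in DMSO, the solvent, or in 100 nM periplocin, and mRNA was then enriched by its poly-A tail. The sample titles call the controls blank and the library names call them DMSO.

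ATF4 is a bZIP transcription factor at the centre of the integrated stress response. Kinases that sense missing amino acids, misfolded protein in the endoplasmic reticulum, viral RNA or heme shortage phosphorylate the initiation factor eIF2, which lowers translation in general but raises translation of ATF4 mRNA through its upstream reading frames. ATF4 protein then binds DNA with C/EBP family partners and activates genes for amino acid supply, glutathione turnover, mTORC1 restraint and cell death, so that the level of ATF4 mRNA and the activity of the protein can part.

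ATF4 with C/EBP partners is known to bind the C/EBP-ATF response element, searched here as TGATGNAA on both strands. In the RefSeq promoter windows of GRCh38.p14, which run from 250 bases before to 50 after a gene's start, 9 of the 10 genes had a window. The motif occurred in those of ASNS and CHAC1, 2 of 9 genes, and in 4.46% of the 27305 genes with windows. Both sequences are shown because these genes share the element while their ratios in K562 differed, with the matched letters in capitals, on the strand of the gene. The stretch of ASNS is chr7:97872458-97872487 on the minus strand, with the match from 68 to 61 bases before the RefSeq start, and that of CHAC1 is chr15:40953251-40953280 on the plus strand, with the match on the opposite strand from 209 to 202 bases before the RefSeq start. GENCODE release 29 has transcripts that begin further upstream, and in it both matches lie within the gene, in the 5′ UTR of 2 transcripts each.
ASNS: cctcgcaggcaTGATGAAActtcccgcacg
CHAC1: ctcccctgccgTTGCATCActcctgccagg

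The stricter form TGATGCAA, whose matches are all matches of TGATGNAA too, was found in CHAC1 and in 1.08% of genes. The cyclic AMP response element TGACGTCA was found in 0 of the 9 genes and in 2.25% of all genes. The endoplasmic reticulum stress element, searched as CCAAT, 9 bases and CCACG, was found in 0 of the 9 genes and in 0.0916% of all genes. These are matches of letters within a short window and say nothing of the factors at longer range.

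Library totals ranged from 16381149 to 20622694 counts, so that 1 count stood for 0.0506 to 0.0591 CPM after scaling. Mitochondrially encoded genes took 5.62% of counts in K562 with DMSO and 2.07% with periplocin, and 5.24% and 3.92% in the THP-1 pair. The labelled lines were checked against their markers. All 8 erythroid markers of K562 were above the floor of 3 counts in both K562 libraries, and their summed level was 1914 CPM in DMSO and 7782 CPM in periplocin against 10.9 and 8.16 CPM in THP-1, where GATA1, KLF1 and ALAS2 were at or under the floor. The 10 myeloid markers summed to 1735 and 1861 CPM in THP-1, where all 10 were above the floor. In K562 they summed to 110 and 114 CPM, with 9 above the floor in DMSO and 8 in periplocin. MPO was at 0 in K562, but it had only 43 and 14 counts in THP-1. The 7 markers of other blood cells summed to between 3.91 and 8.67 CPM, with 3 above the floor in each K562 library and 4 in each THP-1 library. ITGA2B made up most of the K562 sums, at 7.38 CPM in DMSO and 3.22 in periplocin. NKG7 did so in THP-1, at 3.80 and 2.90 CPM, and MS4A1 and PF4 were at 0 in every library.

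In K562 most of the targets lay far lower with periplocin, while ATF4 mRNA itself did not. Of the 10 genes, 7 fell at least 2-fold (ATF5, TRIB3, CHAC1, SESN2, DDIT4, ADM2 and INHBE) and 0 rose, where 12.8% of the 12736 genes tested fell and 10.5% rose. In THP-1, 0 of the 10 fell and 0 rose at least 2-fold, where 12.1% of the 13367 genes tested fell and 9.58% rose. The median log2 ratio of periplocin over DMSO was -1.87 over the 10 genes in K562 and 0.28 in THP-1, beside -0.01 and -0.03 over all genes tested. All 10 genes passed the filter of 10 counts in at least 1 library of the pair in both lines. With 1 library per condition there was no replicate check, and the 95% intervals in brackets below cover counting error only. In bulk RNA, fewer cells of a kind and less RNA per cell cannot be told apart. The rise of erythroid markers in K562, of which 7 of 8 were at least 2-fold higher, and the lower mitochondrial share went with these falls, and their part in them was not tested.

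**Figure D1:**
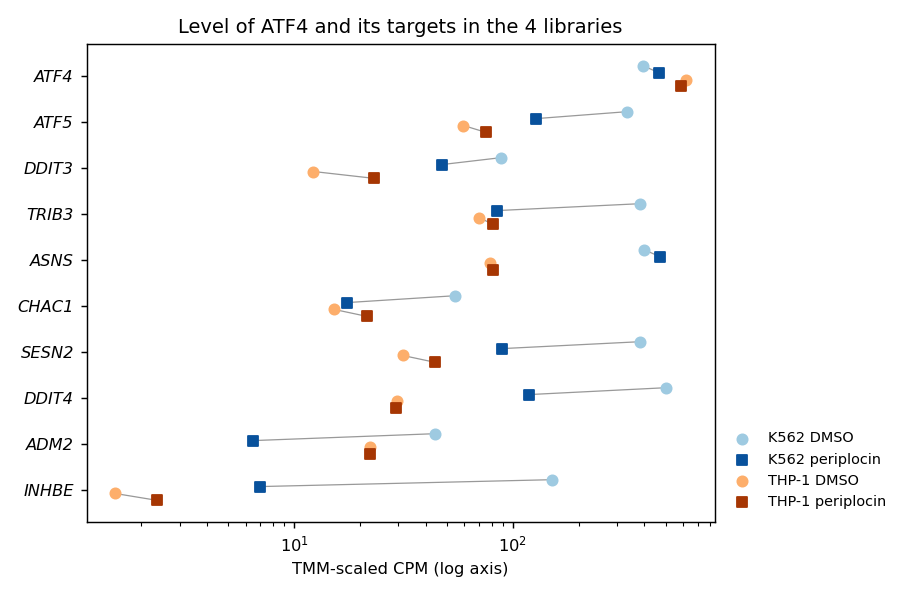
TMM-scaled CPM on a log axis for each of the 10 genes in the 4 libraries, with circles for DMSO, squares for periplocin and a grey line joining the 2 libraries of a cell line. In K562 the squares of 8 genes lie left of the circles, INHBE farthest, from 152 to 6.96 CPM, while in THP-1 the 2 symbols of a gene lie close together.

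ATF4, the regulator, was the most evenly expressed of the genes. K562 gave 6722 counts with DMSO and 8071 with periplocin, and THP-1 gave 12261 with DMSO and 9967 with periplocin, or 394, 464, 621 and 589 CPM. Its level was thus higher in both THP-1 libraries than in both K562 libraries. The log2 ratio of periplocin over DMSO was 0.24 [0.19 to 0.28] in K562 and -0.07 [-0.11 to -0.03] in THP-1, both well inside the range of all genes, whose 10th and 90th percentiles were -1.17 and 1.03 for K562, and for THP-1 they were -1.13 and 0.97. The gene spans 39519695 to 39522685 on the plus strand of chromosome 22 (GRCh38). Per kb of its longest coding transcript it ranked behind DDIT4 alone in K562 DMSO and first among the 10 genes in the other libraries.

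ATF5 and DDIT3 are bZIP factors themselves. ATF5, whose translation is controlled much like that of ATF4, stood at 331 CPM in K562 with DMSO and 128 with periplocin, while THP-1 had 59.5 with DMSO and 75.4 with periplocin. The K562 DMSO library was the highest by far, and the log2 ratio was -1.37 [-1.44 to -1.30] in K562, a 2.59-fold fall, and 0.35 [0.23 to 0.46] in THP-1. ATF5 shares 1062 bases on chromosome 19 with NUP62 on the opposite strand, and use of strand in counting is not stated in the sources used here, so reads of the overlap cannot be told apart. NUP62, with 1135 and 2522 counts in K562 DMSO and periplocin, moved the other way, with a log2 ratio of 1.13. ATF5 itself spans 49928702 to 49933935 on the plus strand.

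DDIT3, also called CHOP, promotes cell death under lasting stress. Its level in K562 was 87.8 CPM with DMSO and 47.2 with periplocin, and in THP-1 it was 12.2 with DMSO and 23.3 with periplocin. The lines thus moved in opposite directions, with log2 ratios of -0.89 [-1.02 to -0.77] in K562 and 0.93 [0.70 to 1.17] in THP-1, just short of 2-fold in each and with the 2-fold mark inside each interval. It was the member just outside the threshold in K562, and ATF5 the one just inside. DDIT3 shares 982 bases on chromosome 12 with MARS1, a tRNA ligase gene on the opposite strand that is itself linked to ATF4, and MARS1 had log2 ratios of -0.67 in K562 and 0.62 in THP-1. MARS1 had more counts than DDIT3 in every library, with 10045 and 6451 in the K562 pair and 3337 and 4368 in the THP-1 pair. DDIT3 also shares 1028 bases with MBD6 on the opposite strand, whose log2 ratios were 0.03 and 0.34. As with ATF5, reads of these overlaps cannot be told apart. DDIT3 spans 57516588 to 57521737 on the minus strand.

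TRIB3, a pseudokinase that binds ATF4 and DDIT3 and limits their activity, had 6499 counts in K562 with DMSO and 1465 with periplocin, against 1384 and 1373 in THP-1. In CPM these were 381, 84.3, 70.1 and 81.2, so the treated K562 library came down to the level of both THP-1 libraries. The fall in K562 was 4.52-fold, a log2 ratio of -2.18 [-2.26 to -2.09], and the THP-1 ratio was 0.22 [0.11 to 0.33]. The level of TRIB3 relative to ATF4, both per kb, was 0.781 in K562 with DMSO and 0.147 with periplocin, against 0.0912 and 0.111 in THP-1. Its span on chromosome 20 is 362835 to 397559.

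ASNS makes asparagine from aspartate and glutamine and is among the best studied ATF4 targets. It was set apart from the other targets in K562, with 398 CPM in DMSO and 470 in periplocin, and it was lower in THP-1, with 78.4 and 81.6 CPM. Its log2 ratio was 0.24 [0.20 to 0.29] in K562 and 0.06 [-0.04 to 0.17] in THP-1. The level of ASNS relative to ATF4 per kb hardly differed between the treatments, at 0.865 with DMSO and 0.868 with periplocin in K562 and, in the same order, 0.108 then 0.119 in THP-1. The gene spans 97852118 to 97872542 on chromosome 7, and its promoter is printed above beside that of CHAC1, whose K562 ratio was far lower.

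CHAC1, on chromosome 15 from 40952962 to 40956519, degrades glutathione. K562 had 54.6 CPM of it with DMSO and 17.4 with periplocin, and THP-1 had 15.3 with DMSO and 21.5 with periplocin. As with TRIB3, the treated K562 library reached the THP-1 range. The log2 ratio was -1.65 [-1.84 to -1.46] in K562, a 3.13-fold fall, and 0.50 [0.28 to 0.72] in THP-1.

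SESN2 and DDIT4 both restrain mTORC1, the kinase complex that drives growth, SESN2 as a leucine sensor and DDIT4, also called REDD1, through the TSC complex. They lie on chromosome 1 from 28259527 to 28282491 and on chromosome 10 from 72273920 to 72276036. SESN2 stood at 382 CPM in K562 with DMSO and 89.5 with periplocin, and at 31.4 and 44.2 CPM in the THP-1 pair. DDIT4 stood at 503, 118, 29.4 and 29.3 CPM in the same order. They fell by nearly the same factor in K562, SESN2 4.27-fold with a log2 ratio of -2.09 [-2.18 to -2.01] and DDIT4 4.24-fold with -2.09 [-2.16 to -2.02]. In THP-1 the log2 ratio of SESN2 was 0.50 [0.34 to 0.65] and that of DDIT4 -0.00 [-0.18 to 0.17], so only the interval of SESN2 lay above 0. Even after the fall, each was higher in treated K562 than in either THP-1 library.

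ADM2 and INHBE encode secreted proteins, ADM2 a peptide of the calcitonin gene-related family and INHBE the beta E subunit of activins and inhibins, of the TGF-beta superfamily. ADM2 had 754 counts in K562 with DMSO and 113 with periplocin, against 439 and 376 in THP-1, or 44.2, 6.50, 22.2 and 22.2 CPM. The treated K562 library was the lowest of the 4, and the log2 ratio of -2.76 [-3.06 to -2.48] was a 6.77-fold fall, against 0.01 [-0.20 to 0.21] in THP-1. ADM2 spans 50481556 to 50486440 on chromosome 22.

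INHBE had the largest fall of the 10, from 2589 counts in K562 with DMSO to 121 with periplocin, while THP-1 had 30 and 40 counts. In CPM it went from 152 to 6.96, a 21.7-fold fall with a log2 ratio of -4.44 [-4.72 to -4.18], and 44 of the 12736 genes tested in K562 had a lower ratio. In THP-1, at 1.52 and 2.36 CPM, the interval of its log2 ratio of 0.64 [-0.07 to 1.38] included 0. INHBE lies on chromosome 12 from 57452323 to 57459280, 57307 bases from DDIT3, which had a much smaller change.

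**Figure D2:**
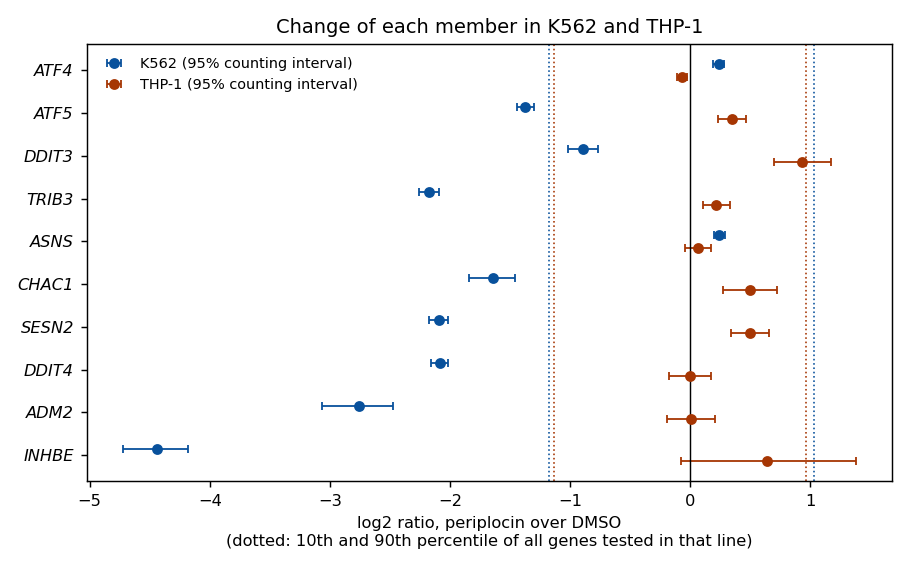
Log2 ratio of periplocin over DMSO for each of the 10 genes in K562 (blue) and THP-1 (brown), with 95% counting intervals as bars and dotted lines at the 10th and 90th percentiles of all genes tested in that line. In K562, 7 genes lie left of the lower dotted line, with the median of the 10 at -1.87, and in THP-1 all 10 lie between the dotted lines, with the median at 0.28.

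With another fold the picture in K562 was graded. At 1.5-fold, 8 of the 10 genes fell, DDIT3 added, beside 23.2% of all genes, and at 4-fold 5 fell (TRIB3, SESN2, DDIT4, ADM2 and INHBE), beside 3.47% of all genes. In THP-1, 2 genes, DDIT3 and INHBE, rose at least 1.5-fold, beside 18.7% of all genes. The log2 ratio was lower in K562 than in THP-1 by at least 1 for 8 of the 10 genes, beside 12.7% of the 11672 genes tested in both lines. This gap between the lines was widest for INHBE at -5.08 [-5.81 to -4.35] and narrowest in size for ASNS at 0.18 [0.06 to 0.29] and ATF4 at 0.31 [0.25 to 0.37].

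The lines also differed in the level from which the genes started. In DMSO, 8 of the 10 genes were at least 2-fold lower in THP-1 than in K562, beside 22% of the 13974 genes tested. The exceptions were ATF4, with a log2 ratio of THP-1 over K562 of 0.66 [0.61 to 0.70], and ADM2, with -0.99 [-1.16 to -0.82]. ADM2 thus lay next to the threshold, with the 2-fold mark inside its interval. In K562 DMSO, INHBE was 98.3-fold, DDIT4 17.1-fold and SESN2 12.2-fold higher than in THP-1 DMSO.

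In periplocin, 5 of the 10 genes were at least 2-fold lower in THP-1 than in K562, beside 24% of the 13944 genes tested. Of these, DDIT3 at -1.02 [-1.20 to -0.85] and SESN2 at -1.02 [-1.15 to -0.89] lay next to the threshold. The TRIB3 ratio was -0.05 [-0.16 to 0.05], so that its levels in the treated lines could not be told apart at this depth. ADM2 was 3.41-fold higher in treated THP-1 than in treated K562, with a log2 ratio of 1.77 [1.47 to 2.09], and CHAC1 had a ratio of 0.30 [0.08 to 0.53]. ASNS kept its distance, with log2 ratios of -2.34 in DMSO and -2.53 in periplocin. These ratios use the same libraries as the changes within a line and are no separate evidence of them, and cell line and library cannot be told apart.

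**Figure D3:**
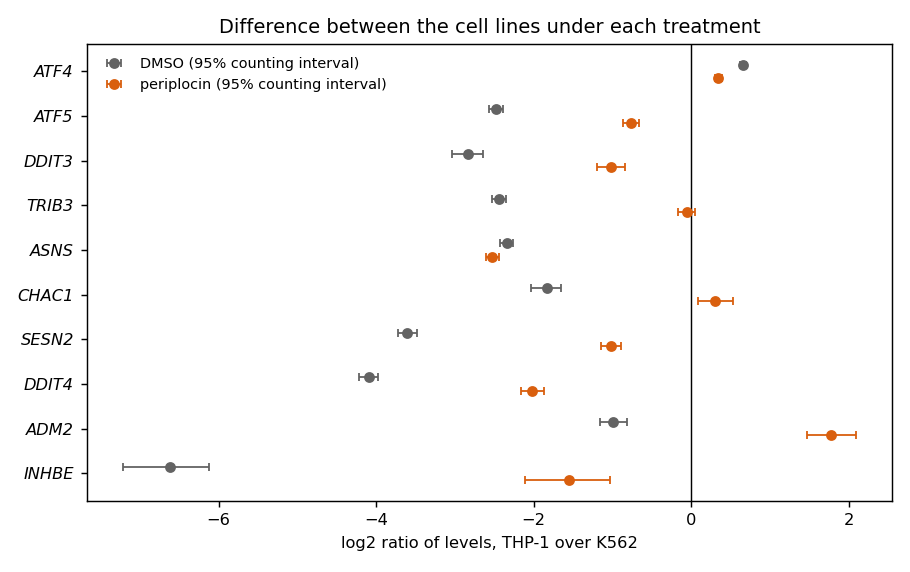
Log2 ratio of levels, THP-1 over K562, for each of the 10 genes in DMSO (grey) and periplocin (orange), with 95% counting intervals as bars. The ratio of INHBE is -6.62 in DMSO and -1.55 in periplocin, that of TRIB3 goes from -2.44 to -0.05, ATF4 goes from 0.66 to 0.34, and ASNS from -2.34 to -2.53.

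Summed over the 10 genes, the level in K562 was 2727 CPM with DMSO and 1433 with periplocin, and in THP-1 it was 941 and 970. Without ATF4 and ASNS the sums were 1935, 498, 242 and 299 CPM, so the 8 other genes made up most of the K562 DMSO sum and a minority in the other libraries. Per kb of longest coding transcript, the order from the top in K562 DMSO was DDIT4, ATF4, ASNS, ATF5, TRIB3, SESN2, DDIT3, INHBE, CHAC1 and ADM2, from 288 to 10.3 CPM per kb. In K562 periplocin ATF4 led with 230 and ASNS followed with 200 CPM per kb, and the next, DDIT4, stood at 67.8. In THP-1 ATF4 led by a wide margin, with 307 CPM per kb in DMSO and 292 in periplocin, and the second gene stood at 33.3 (ASNS, DMSO) and 36.5 (ATF5, periplocin). In THP-1 DMSO, ATF5 and TRIB3 at 28.7 and 28.0 CPM per kb were closer than their counting errors of 2.92% and 2.69%. INHBE or ADM2 was last in each library.

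The pattern over the 4 libraries was compared as log2 CPM centred on each gene's own mean, by root mean square distance, among the 11014 genes averaging 5 CPM or more. ATF5 lay nearest to the mean pattern of the 10 genes, at 0.110, and INHBE and ATF4 farthest, at 1.45 and 1.26. Outside the 10, GFPT1, the first and rate-limiting enzyme of the hexosamine pathway, lay nearest to the mean pattern at 0.116, with 7868 counts in K562 with DMSO and 2494 with periplocin, against 1645 and 1894 in THP-1. NMT2, HHEX, QRICH2 and CYP2R1 followed, at 0.148 to 0.159. The genes most like ATF4 were SH3BP5L, IBA57, SPTSSA, ZSWIM9 and CCNC, at 0.0240 to 0.0288. With 4 libraries such likeness is a description only.

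Upstream of ATF4, most genes for the eIF2 kinases, eIF2, its exchange factor eIF2B and the eIF2 phosphatase stayed within 2-fold. Of 20 genes tested in K562, 1 fell at least 2-fold and 0 rose, beside 12.8% and 10.5% of all genes. Their median log2 ratio was -0.04. The one that fell was EIF2S2, the beta subunit of eIF2, at 489 CPM in DMSO and 211 in periplocin. In THP-1, 0 of 20 fell and 2 rose, beside 12.1% and 9.58% of all genes, so the share that rose was near that of all genes. The 2 were the phosphatase subunits PPP1R15A, from 31.2 to 102 CPM with a log2 ratio of 1.72 [1.59 to 1.86], and PPP1R15B, from 276 to 563 CPM. PPP1R15A, also called GADD34, is itself a target of ATF4 and DDIT3 and brings translation back. In K562 its log2 ratio was 0.52 [0.47 to 0.58], above 0 where 8 of the 10 genes were below. The largest rise in K562, EIF2B2 at 0.99, and the largest fall in THP-1, EIF2B3 at -0.93, were short of 2-fold. The transcripts say nothing of eIF2 phosphorylation, which was not measured in these files.

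The bZIP genes that can pair with ATF4 or belong to its relatives moved further apart between the lines. In K562, 7 of 17 tested fell and 3 rose, beside 12.8% and 10.5% of all genes. In THP-1, 0 of 18 fell and 4 rose, beside 12.1% and 9.58% of all genes. The medians were -0.49 and 0.34. NFIL3, at -1.01 in K562, lay next to the threshold, and the K562 count of falls was 6 with DESeq2 size factors or total counts. The C/EBP partners CEBPB and CEBPG, named after their values were seen, fell in K562, from 83.7 to 30.2 CPM and from 234 to 98.8 CPM, with log2 ratios of -1.47 [-1.62 to -1.33] and -1.24 [-1.33 to -1.16]. In THP-1 their ratios were 0.28 and 0.41. Of the other C/EBP genes tested in K562, CEBPD did not fall, with 0.10 [-0.41 to 0.61], and CEBPA had -1.67 at 23 and 7 counts. The largest fall in K562 and the largest rise in THP-1 at 5 CPM or more belonged to the same gene, JDP2, a repressor of the AP-1 family, with -1.65 [-2.03 to -1.29] and 1.13 [0.98 to 1.28]. ATF3, a stress-induced factor of the same family chosen after its values were seen, had 953 and 348 counts in the K562 pair and 28 and 100 in the THP-1 pair, with log2 ratios of -1.48 and 2.05. DBP, a factor of the circadian clock, rose in K562 from 1.93 to 10.6 CPM, and CEBPA had the lowest THP-1 ratio of the abundant genes, -0.21.

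Among genes of amino acid synthesis linked to ATF4, 9 of 13 fell at least 2-fold in K562 and 0 rose, beside 12.8% and 10.5% of all genes, and the median log2 ratio was -1.20. The other 4, PHGDH, ALDH18A1, PYCR1 and GPT2, had ratios from -0.88 to -0.07. CTH, at -1.01 [-1.11 to -0.90], lay next to the threshold, and the K562 count was 8 with DESeq2 size factors or total counts. SHMT2, the mitochondrial enzyme that takes one-carbon units from serine, had the largest fall, from 715 to 135 CPM, a log2 ratio of -2.40 [-2.47 to -2.34]. The serine synthesis enzyme PSAT1, picked once its values were known, fell from 867 to 327 CPM, whereas PHGDH, which takes the first step of that pathway, had a ratio of -0.18. ALDH18A1, of proline synthesis, had the ratio nearest to 0, -0.07 [-0.18 to 0.05]. In THP-1, 3 of 13 fell and 0 rose, beside 12.1% and 9.58% of all genes, with a median of -0.17. PYCR1 of proline synthesis was lowest there at -1.47 [-1.68 to -1.26] and PHGDH highest at 0.51. PCK2, the mitochondrial phosphoenolpyruvate carboxykinase, fell in both lines, from 194 to 48.3 CPM in K562 and from 61.8 to 28.0 CPM in THP-1. ASNS, with 0.24 in K562, thus lay above every gene of this list.

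Of the amino acid transporters, 2 of 9 fell and 0 rose in K562, and 1 fell and 2 rose in THP-1, with medians of -0.29 and 0.30. For comparison, 12.8% of all genes fell and 10.5% rose in K562, and 12.1% fell and 9.58% rose in THP-1. SLC1A4, whose interval ran from -1.10 to -0.90, lay on the threshold, and the K562 count was 1 with DESeq2 size factors or total counts. SLC7A5, the light chain of a leucine transporter, fell in K562 from 842 to 329 CPM with a log2 ratio of -1.36, while SLC3A2, its heavy chain, had the highest ratio, 0.54. In THP-1, SLC7A11, the cystine transporter, rose from 25.0 to 67.8 CPM with a log2 ratio of 1.44 [1.29 to 1.60], and SLC43A1 fell from 44.1 to 15.1 CPM. The tRNA ligase list, which also holds the tRNA exporter XPOT, had 4 of 13 genes lower and 0 higher in K562 and 0 either way in THP-1, with medians of -0.63 and 0.16. NARS1 and XPOT, at -1.01 and -1.02, lay next to the threshold, and the K562 count was 2 with DESeq2 size factors. WARS1 had the largest fall in K562, -1.16 [-1.20 to -1.12], and SARS1 the highest ratio, 0.46, while in THP-1 CARS1 was highest at 0.86 and IARS1 lowest at -0.88.

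The C/EBP-ATF element was frequent among the tRNA ligase promoters, where 7 of the 11 genes with a window held TGATGNAA, and among the transporters, where 4 of 8 did, beside 4.46% of all genes. Both lists were written from knowledge of ATF4 targets, which this element partly defined, and the search by list was chosen once the values were known. Within the ligase list, the 7 genes with the element had a median log2 ratio of -0.66 in K562 and a range from -1.12 to 0.29, and the 4 without it a median of -0.82 and a range from -1.16 to 0.46, so that the ranges overlapped almost wholly. The same search was void for the lists of amino acid synthesis and other stress targets, since 61.5% and 73.3% of their genes had a window. A pair of ligase promoters is shown to set genes with the same 8 matched letters but different ratios side by side, the element again in capitals on the strand of the gene. The stretch of IARS1 is chr9:92293698-92293721 on the minus strand, with the match from 13 to 6 bases before the RefSeq start. Its match lies in the UTR of 2 GENCODE transcripts, and IARS1 fell in K562 with a log2 ratio of -1.12. The stretch of AARS1 is chr16:70289675-70289704 on the minus strand, with the match from 187 to 180 bases before the RefSeq start. Its match lies in an exon of 1 GENCODE transcript but outside annotated UTRs, and AARS1 had a K562 ratio of -0.11.
IARS1: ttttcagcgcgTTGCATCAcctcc
AARS1: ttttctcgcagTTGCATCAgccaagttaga

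The other stress targets diverged most between the lines. In K562, 9 of 14 fell and 1 rose, beside 12.8% and 10.5% of all genes, with a median of -1.60. In THP-1, 0 of 14 fell and 7 rose, beside 12.1% and 9.58% of all genes, with a median of 0.92. TNFRSF10B, the death receptor DR5, had the largest fall in K562 at 5 CPM or more, from 85.7 to 21.5 CPM with a log2 ratio of -2.00 [-2.17 to -1.83], and in THP-1 it rose from 44.2 to 93.9 CPM with 1.09 [0.97 to 1.21]. STC2, a secreted glycoprotein, had the largest rise in THP-1, from 3.80 to 18.3 CPM with 2.27 [1.91 to 2.66], and fell in K562 from 145 to 44.4 CPM with -1.71 [-1.83 to -1.59]. KLHL24 rose in both lines, with 1.21 in K562 and 1.75 in THP-1. EIF4EBP1, a repressor of cap-dependent translation, had the lowest ratio in THP-1, -0.16, and fell in K562 with -1.77.

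**Figure D4:**
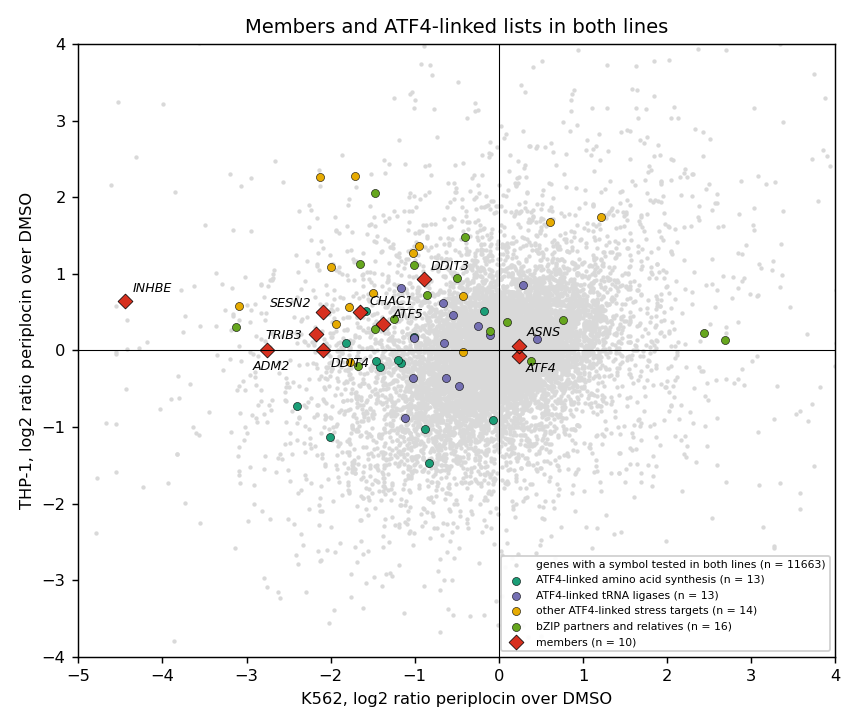
Log2 ratio of periplocin over DMSO in K562 (x axis) and THP-1 (y axis) for the 10 genes (red diamonds, labelled), 4 pathway lists (coloured circles) and 11663 genes with a symbol tested in both lines (grey), of which 100 lie outside the axes. The red diamonds other than ATF4 and ASNS lie left of 0, none above 0.93 on the y axis, and the stress targets (yellow) reach the upper left, with a median of -1.60 in K562 and 0.92 in THP-1.

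Falling at least 2-fold in K562 and rising at least 2-fold in THP-1 was seen for 4 of the 14 other stress targets (NUPR1, GDF15, STC2 and TNFRSF10B), for 3 of 16 bZIP genes (ATF3, JDP2 and NFIL3), for 0 of the 10 genes and for 1.11% of the 11672 genes tested in both lines. At any size, 7 of the 10 genes had a ratio below 0 in K562 and above 0 in THP-1, beside 2222 of the 11672. Among these members, the THP-1 intervals of ADM2 and INHBE included 0. NUPR1 and GDF15 are named here for this count. NUPR1 was low in K562, with 113 and 26 counts, and GDF15 in THP-1, at 0.405 and 1.00 CPM. NFIL3 lay next to the threshold in K562, at -1.01 [-1.23 to -0.79].

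Markers of the other arms of the endoplasmic reticulum stress response were followed to set the ATF4 arm beside them. Of 21 genes for ATF6, XBP1 and their chaperone targets, 5 fell and 0 rose in K562, beside 12.8% and 10.5% of all genes. In THP-1, 0 moved 2-fold either way, beside 12.1% and 9.58% of all genes. The medians were -0.54 in K562 and 0.09 in THP-1. ERN1, the sensor that splices XBP1 mRNA, had the largest fall, from 96.6 to 23.2 CPM with a log2 ratio of -2.06 [-2.22 to -1.90], and CALR, a chaperone, had the highest ratio, 0.87. In THP-1 the range ran from -0.86 for PDIA4 to 0.97 for DNAJC3.

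Of 9 family relatives of the 10 genes tested in K562, 1 fell and 1 rose, with a median of 0.16, which is 11.1% each way and near the 12.8% and 10.5% of all genes. Of 8 in THP-1, 2 fell and 2 rose, beside 12.1% and 9.58% of all genes, with a median of 0.25. TRIB1, a relative of TRIB3, had the largest rise in THP-1, from 8.60 to 54.4 CPM with a log2 ratio of 2.66 [2.43 to 2.91], and 0.36 in K562. INHA, the alpha subunit of inhibins and a relative of INHBE, rose in K562 from 2.70 to 8.11 CPM, and CHAC2, a relative of CHAC1, had the lowest ratio there at 5 CPM or more, -0.33. ASNSD1 fell in THP-1 with -1.32.

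Of 19 genes acting on ATF4 protein stability or on mTORC1, 1 fell and 1 rose in K562, beside 12.8% and 10.5% of all genes. Of 18 in THP-1, 2 fell and 0 rose, beside 12.1% and 9.58% of all genes, so the share that fell was near that of all genes. The medians were 0.22 in K562 and 0.05 in THP-1. TSC1, of the complex through which DDIT4 acts, rose in K562 from 62.2 to 166 CPM with a log2 ratio of 1.41 [1.31 to 1.52], and RPTOR, the mTORC1 scaffold, had the largest fall among genes at 5 CPM or more, -0.58. In THP-1, NPRL3 fell with -1.07, EP300 had the highest ratio, 0.80, and CASTOR1, the arginine sensor, fell in both lines at levels of 2.05 CPM or less.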

How the data were processed

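Gene expression was measured by poly-A RNA-seq in 4 libraries. The authors deposited 1 table of expected counts per gene, neither normalized nor pooled, with 0 columns left unused and 87.4% to 88.3% of the values whole. The submitters' processing notes name HISAT2, StringTie 1.3.1 and hg38. The counting program and annotation are not given in the sources used here. Dose and time come from the study's methods. The labels name a NovaSeq sequencer and the study's methods the T7 platform.

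Expected counts were rounded. Positions came from GENCODE release 29, in which 20118 of 20348 genes were found, and promoters from RefSeq (GRCh38.p14). TMM factors were computed with edgeR 4.0.16 in R 4.3.3, within a line for changes and over the 4 libraries for levels in CPM. The log2 ratio used a pseudocount of 0.5, with an exact binomial (Clopper-Pearson) 95% interval, and for differences of ratios a normal approximation on log counts. Genes with at least 10 counts in 1 library of the pair counted as tested, and a fold of at least 2 as fallen or risen. Without replicates there were no tests or p-values. The calculation was tested on simulated counts with known folds and counting error only, so that test says nothing of biological spread. Figures and tables were made with Python 3.11.15, numpy 2.4.6, pandas 2.3.3, scipy 1.17.1 and matplotlib 3.10.9.

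The members and the 9 pathway lists were chosen with earlier results of these data known. Named were all members, in each list the genes past 2-fold in both lines and the largest rise and fall in each line at a mean of 5 CPM or more, and the 5 genes most like the members or ATF4. Genes beyond this rule are marked in the text or named to spell out a count. Alternatives were DESeq2 1.42.0 size factors, total counts, other pseudocounts, filters, folds, lengths and assumed dispersions. A planned comparison of protein sequences was not made.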

Additional observations from a re-analysis of the deposited data

Results flagged for a closer look

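The change with periplocin went opposite ways in K562 and THP-1 for 13 genes that were flagged by separate rules. Members were flagged where each counting interval lay on its own side of 0, and list genes where each line changed at least 2-fold. List genes with such intervals but smaller changes, CEBPB among them, were not counted. Of the 11672 genes tested in both lines, 1.11% fell in K562 and rose in THP-1 at least 2-fold. No share of all genes stands beside the interval rule, which a small change can meet in a gene of many counts. With 1 library per line and condition these differences were not tested. Given as the log2 ratio in K562 minus that in THP-1, the difference was 0.31 for ATF4, the member with a ratio above 0 in K562 and below 0 in THP-1. For the other members it was -1.72 for ATF5, -1.83 for DDIT3, -2.39 for TRIB3, -2.15 for CHAC1 and -2.59 for SESN2. ATF5 and DDIT3 overlap genes on the opposite strand, and reads of the overlaps cannot be told apart. With an assumed dispersion of 0.01 the interval of ATF4 included 0 in both lines and those of ATF5 and TRIB3 in THP-1, so 3 of these 6 members no longer had intervals on opposite sides. In the pathway lists, where at least a 2-fold change was asked in each line, it was -3.53 for ATF3, -2.30 for GDF15, -2.77 for JDP2, -2.13 for NFIL3, -4.39 for NUPR1, -3.98 for STC2 and -3.09 for TNFRSF10B. The THP-1 level of GDF15 was 0.405 CPM in DMSO and 1.00 in periplocin, so its difference rests on few counts. NFIL3 lay next to the 2-fold mark in K562, with a log2 ratio of -1.01 [-1.23 to -0.79].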

How the results depend on the processing

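The changes were recomputed with DESeq2 size factors, total counts, other pseudocounts, unrounded counts, other filters or mitochondrial genes left out, where each applied. The log2 ratio of periplocin over DMSO of each member moved by at most 0.028. Ratios of THP-1 over K562 were not part of these runs. The ratios of DDIT4 and ADM2 in THP-1, next to 0, took either sign. Counts of genes past 2-fold moved as follows, and where nothing else is said the cause was not tested. DESeq2 size factors gave 1 eIF2-related gene higher in K562 (0 in the report), 1 transporter lower (2) and 2 tRNA ligases lower (4), and total counts also gave 1 transporter lower. Without a filter, which adds genes of few counts, 1 bZIP gene and 2 transporters were lower in THP-1 (0 and 1), 2 relatives lower in K562 (1), 1 stability or mTORC1 gene higher in THP-1 (0), and over all genes 2494 were lower and 2641 higher in K562 and 2202 higher in THP-1. With a mean of at least 5 CPM, which tests fewer genes, 1 bZIP gene was higher in K562 and 2 in THP-1 (3 and 4), 0 relatives were lower in K562 and 1 lower and 1 higher in THP-1 (1, 2 and 2), 0 stability or mTORC1 genes were lower in K562 and 1 in THP-1 (1 and 2), and over all genes 913 were lower and 744 higher in K562 and 842 lower and 634 higher in THP-1. At 1.5-fold, 2 members rose in THP-1 (0). Intervals were also widened by an assumed biological dispersion. At 0.01, 0.04 and 0.16, the members with an interval above 0 in K562 numbered 0, 0 and 0 (2 from counting error alone, ATF4 and ASNS), those below 0 in THP-1 0, 0 and 0 (1, ATF4) and those above 0 in THP-1 3, 1 and 0 (5). Below 0 in K562 there were 8, 8 and 6. These counts cover only the members, which were selected on these values, and no share of all genes stands beside them. Of the other counts and values, 356 that answer a comparison and 211 others stayed within 1.5 times or their interval. With union exon lengths in place of the longest coding transcript the order of ASNS, ATF5, TRIB3 and SESN2 per kb changed in some libraries. Depth limits INHBE in THP-1 most, at 30 and 40 counts.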
